A study of Mus musculus with 12 samples.

Results

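The same 24 h of shared culture was compared between a tumour cell and an endothelial cell, gene by gene. For every gene the change in the mouse hepatoma line Hepa1-6 (co-culture minus alone) was set against the change in liver sinusoidal endothelial cells (LSECs; co-culture minus alone), and the difference of the differences was tested. All 12 libraries of the series enter this comparison, 3 in each of 4 groups: Hepa1-6 cells alone, Hepa1-6 cells from co-culture, LSECs alone and LSECs from co-culture. Of 45777 genes listed, 17346 had enough counts to be tested. A gene counts as expressed in both cell types where its mean over the 6 libraries of each is at least 1 CPM, a count scaled to library size, which held for 10907 genes.

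Hepa1-6 cells had been grown in DMEM with 10% serum and LSECs in their own complete medium. LSECs were primary cells, 500000 at the bottom of each well of a 12-well plate, and 100000 Hepa1-6 cells sat above them in an insert with 3 µm pores. After washing, both were kept in DMEM with 2% serum and antibiotics for 24 h, together or alone, so the co-cultured cells shared medium. The labels give no strain, age or sex for the mice that supplied the LSECs. They do not say whether the 3 libraries of a group came from separate cultures or animals, so p-values measure the spread between these libraries, which may be technical. Where a title pairs the cells, the RNA was read as coming from the one named first, and the markers below go with that reading.

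Sinusoidal endothelial cells line the capillaries of the liver, filter and scavenge the blood, and share the narrow space around the hepatocytes with resident macrophages. Cells that share medium can act on each other through secreted cytokines, growth factors, metabolites and nutrients. NF-kB is a transcription factor that drives chemokines and its own inhibitors after an inflammatory stimulus. ATF4 is the transcription factor of the integrated stress response, which raises amino acid transporters, amino acid synthesis enzymes and tRNA synthetases when amino acids are short. Genes that answer such a signal can do so in both cells, in one of them or in opposite directions.

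Total counts were 32761492 to 48870698 per library. Cdh5, the endothelial cadherin, had no read in any of the 6 Hepa1-6 libraries, against a mean of 3253 CPM in LSECs alone and 2790.0 CPM in co-cultured LSECs. Alb (albumin) was at 2042 and 2319 CPM in Hepa1-6 cells alone and co-cultured, against 7.33 and 10.25 CPM in LSECs. The LSEC cultures also carried macrophage transcripts: 20 macrophage and Kupffer cell markers summed to 2207 to 3458 CPM alone and 3502 to 4794 CPM in co-culture, and 10 neutrophil markers to 7.08 to 7.92 CPM alone and 42.3 to 50.1 CPM in co-culture. In bulk RNA, fewer cells of a type and less RNA per cell cannot be told apart. Replicate 1 of each LSEC group stood apart, with a median absolute log2 difference of 0.387 to 0.476 from its group's other libraries, against 0.0621 to 0.0702 between replicates 2 and 3. Hepa1-6 libraries of a group differed by 0.0583 to 0.0703. Because LSEC libraries with the same replicate number deviated from their group means together, each LSEC result whose call changes is also given with replicate number as a term in the model (the replicate term). The summed level of genes that mark Hepa1-6 cells gained 0.207% of its Hepa1-6 value in the LSEC libraries on co-culture, and that of genes that mark LSECs gained 0.0124% of its LSEC value in the Hepa1-6 libraries, while the median gene gained 0 in both. A gene marked a cell here at 20 CPM or more in that cell alone and at least 100-fold its level in the other cell alone. These genes were picked from the same libraries for a low level alone, which by itself favours a gain.

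In 408 genes the response differed between the cell types at an adjusted p under 0.05 (edgeR quasi-likelihood test with Benjamini-Hochberg adjustment). The response was higher in Hepa1-6 cells for 165 of them, 0.951% of the genes tested, and higher in LSECs for 243, or 1.4%. The gap between the responses was at least 2-fold for 259 of them. Of the 408 genes, 331 were expressed in both cell types, 34 in Hepa1-6 cells only, 31 in LSECs only, and 12 were low in both. Among the 331, the fitted changes had opposite signs in 195 genes and the same sign in 136. With the replicate term, 3368 genes differed, 1570 higher in Hepa1-6 cells (9.05%) and 1798 higher in LSECs (10.4%). Leaving out any 1 Hepa1-6 library gave 216 to 243 genes, and leaving out replicate 1 of LSECs alone gave 726. The test took the same spread for both cell types in each gene, although the LSEC libraries spread more. With a variance factor per group (limma voom), 288 of the 408 genes kept the call.

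The 331 genes and the genes called in both cells were sorted into classes. A gene was opposed where its responses differed and the co-culture libraries lay wholly to one side of the alone libraries in one cell type and wholly to the other side in the other. There were 109 opposed genes, 58 of them higher in co-cultured Hepa1-6 cells and lower in co-cultured LSECs. Ranges set apart in opposite directions, without the test, occurred in 281 of the 10907 genes expressed in both, or 2.58%. A gene was shared where it changed the same way by the test of each cell alone, which gave 64 genes, 45 up and 19 down. It was one-sided where the responses differed, one cell's own test passed and the other's missed even an unadjusted p of 0.05. There were 79 LSEC-sided and 16 Hepa1-6-sided genes; 12 genes were both opposed and one-sided, and 91 of the 331 fell in no class. Without replicate 1 of LSECs alone, 203 genes were opposed and 40 were Hepa1-6-sided, and without LSEC co-culture replicate 1, 25 were Hepa1-6-sided, 36 shared and 50 LSEC-sided. Ranges lie apart more easily with fewer libraries in a group, so opposed counts with a library left out meet an easier rule. Leaving out any Hepa1-6 library but co-culture replicate 3 gave 64 to 70 opposed genes, and leaving out any of the 6 gave 6 to 10 Hepa1-6-sided. Without replicate 2 or 3 of either LSEC group, 19 to 21 were shared and 22 to 28 LSEC-sided.

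The test of each cell alone gave more calls in Hepa1-6 cells, although the changes were larger in LSECs. In Hepa1-6 cells 1258 of 14796 genes rose (8.5%) and 1040 fell (7.03%), whereas in LSECs 332 of 15256 rose (2.18%) and 139 fell (0.911%). Under the replicate term, 2550 rose in LSECs (16.7%) and 2532 fell (16.6%). The median absolute change over genes expressed in both was 0.0778 on the log2 scale in Hepa1-6 cells and 0.172 in LSECs, and 23 against 276 genes changed at least 2-fold in fitted value. Across 10906 genes the changes in the 2 cell types had a Pearson correlation of 0.154 and a Spearman correlation of 0.223, given as a description since genes are not replicates. The genes called in both cells numbered 89, which is 4.54% of the Hepa1-6 calls and 42.2% of the LSEC calls among genes expressed in both, and 64 of the 89 (71.9%) moved the same way. Once replicate number was a term, 988 genes were called in both, 50.4% of the Hepa1-6 calls and 24.8% of the LSEC calls, and 73% of them moved the same way. Without replicate 2 or 3 of either LSEC group, 146 to 160 genes were called in LSECs, and without co-culture replicate 1, 293.

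**Figure D1:**
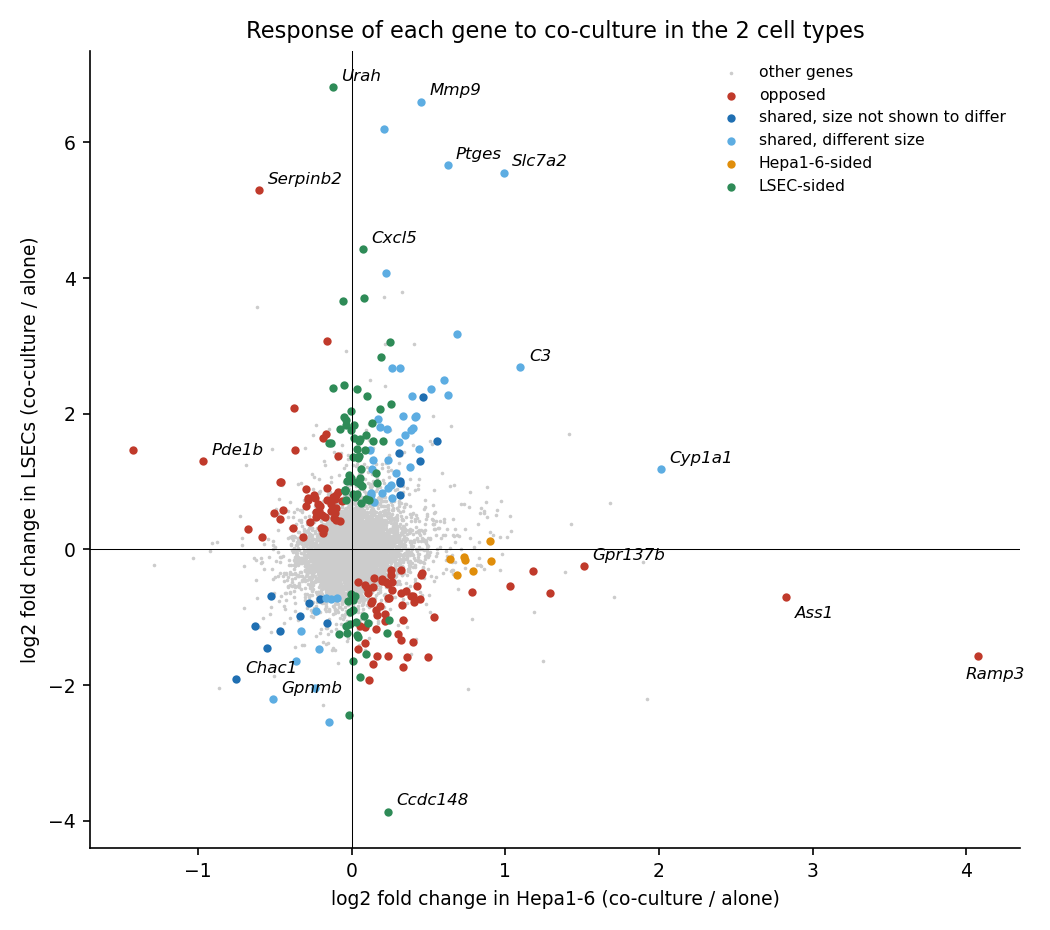
Change of each gene on co-culture in Hepa1-6 cells (horizontal axis, log2 fold change of co-culture over alone) and in LSECs (vertical axis, same scale), for genes expressed in both cell types; colours mark the classes and each point is 1 gene. Ramp3 and Ass1 lie far to the right, and Mmp9, Urah and Serpinb2 far up. The opposed genes lie in the upper left and lower right quadrants, most of them with small Hepa1-6 changes.

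**Figure D2:**
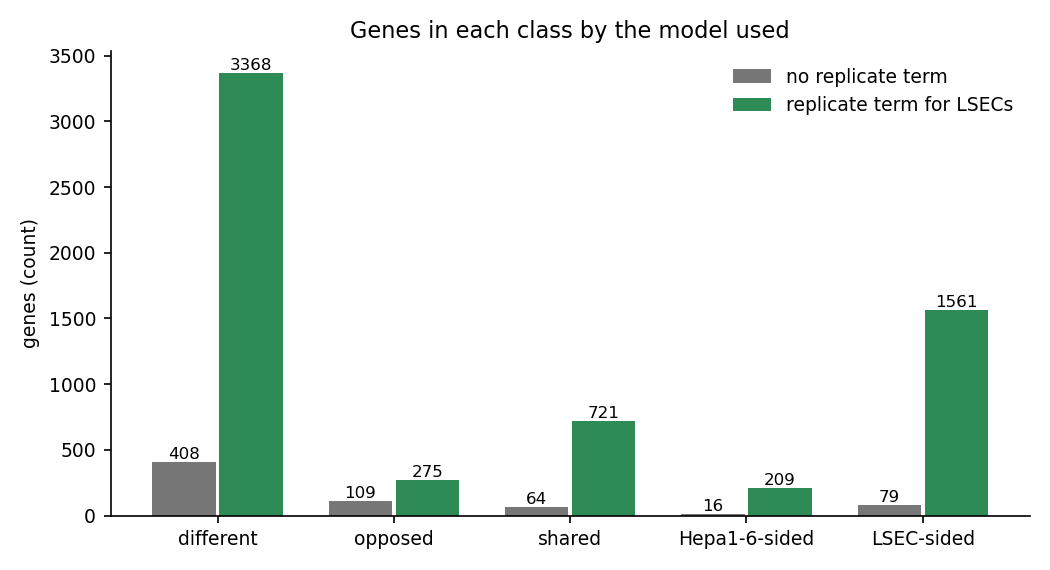
Number of genes in each class (vertical axis, count) without a replicate term and with replicate number as a term for LSECs. The number of genes whose response differed was 408 without the term and 3368 with it.

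Ramp3, which pairs with the calcitonin receptor-like receptor to form an adrenomedullin receptor, had the largest opposed difference toward Hepa1-6 cells among the named genes. In Hepa1-6 cells it was at 2.85, 3.43 and 3.38 CPM alone and 58.8, 56.5 and 49.1 CPM in co-culture (chr11:6658506-6677478, as are all coordinates here on mm10). In LSECs it was at 8.85, 5.15 and 3.33 CPM alone and 2, 2.5 and 1.49 CPM in co-culture. All 3 co-cultured Hepa1-6 libraries were above every other library, and all 3 co-cultured LSEC libraries were below the LSECs alone. The Hepa1-6 rise was 16.9-fold (log2 fold change 4.08, SE 0.0861, adjusted p = 2.11e-18). The LSEC level was 2.98-fold lower, which missed the threshold (adjusted p = 0.14, and 0.00135 with the replicate term). The responses differed by 5.62 on the log2 scale (SE 0.45, adjusted p = 9.35e-05).

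Ass1, argininosuccinate synthase of the urea cycle and of arginine synthesis, showed the same pattern. It was at 8.62, 7.88 and 7.19 CPM in Hepa1-6 cells alone and 57, 61.9 and 49.2 CPM in co-culture (chr2:31470270-31520670). LSECs held 24.2, 20.8 and 23.1 CPM alone and 14, 14.3 and 14.8 CPM in co-culture. Ass1 was thus lower in Hepa1-6 cells than in LSECs when each grew alone and higher in Hepa1-6 cells in co-culture, with no overlap between any of the groups. It rose 7.11-fold in Hepa1-6 cells (log2 fold change 2.83, SE 0.0844, adjusted p = 6.32e-14). In LSECs it was 1.62-fold lower at an adjusted p of 0.0522, or 0.0004 with the replicate term, and the responses differed by 3.49 on the log2 scale (SE 0.164, adjusted p = 1.42e-06).

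The other named genes of this direction were Per1, Abtb2, Pmp22 and Itga3. Per1 is a repressor of the circadian clock. It was at 12.2, 11.7 and 10.8 CPM in Hepa1-6 cells alone and 21.4, 21.1 and 17.5 CPM in co-culture (1.72-fold, adjusted p = 7.65e-07). In LSECs Per1 was at 22.9, 30.6 and 31.9 CPM alone and 14.1, 20.3 and 22.2 CPM in co-culture, 1.54-fold lower (adjusted p = 0.26, and 0.000308 with the replicate term). The lowest LSEC library alone was close to the highest co-cultured one, and the 2 ranges did not overlap. Pmp22, a small membrane protein of peripheral myelin that other cells also make, passed both own tests. It rose in Hepa1-6 cells from 5.43, 4.32 and 5.68 to 8.38, 6.96 and 7.03 CPM (1.45-fold, adjusted p = 0.00442). It fell in LSECs from 57.5, 57 and 54.7 to 31.9, 27.4 and 27.5 CPM (2-fold, adjusted p = 0.0143).

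Itga3, the integrin subunit that binds laminins, was at 705, 691 and 719 CPM in Hepa1-6 cells alone and 952, 956 and 976 CPM in co-culture, a rise of 1.36-fold (adjusted p = 1.79e-11). The LSEC libraries held it at 152, 193 and 194 CPM alone and 92.8, 118 and 123 CPM in co-culture, with adjusted p = 0.0839 without and 5.02e-06 with the replicate term. The groups of each cell type did not overlap. Abtb2, a protein with ankyrin repeats and BTB domains, was at 1.56, 1.79 and 1.14 CPM in Hepa1-6 cells alone and 2.97, 3.28 and 2.92 CPM in co-culture (2.04-fold, adjusted p = 0.000666). In LSECs Abtb2 was 1.46-fold lower in co-culture (16 to 23.4 against 13.5 to 15.3 CPM), with adjusted p = 0.234 without and 0.00303 with the replicate term. The difference between the responses was 1.38 on the log2 scale (SE 0.257, adjusted p = 0.0185) for Per1 and 1.54 on the log2 scale (SE 0.27, adjusted p = 0.0144) for Abtb2. It was 1.5 on the log2 scale (SE 0.179, adjusted p = 0.0012) for Pmp22 and 1.14 on the log2 scale (SE 0.178, adjusted p = 0.00703) for Itga3. The Per1 difference missed the threshold without Hepa1-6 co-culture replicate 1 or 2 or Hepa1-6 alone replicate 1, 2 or 3 or LSEC alone replicate 2 (adjusted p = 0.0501 to 0.0676), and that of Abtb2 without Hepa1-6 co-culture replicate 2 (adjusted p = 0.0519). The LSEC fall of Pmp22 missed it without LSEC co-culture replicate 2 or 3 or LSEC alone replicate 2 or 3 (adjusted p = 0.0777 to 0.118).

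In the reverse direction, Serpinb2 (plasminogen activator inhibitor 2) had the largest difference of the named opposed genes. It was at 3.07, 2.61 and 3.1 CPM in Hepa1-6 cells alone and 1.56, 1.99 and 2.19 CPM in co-culture (chr1:107500892-107525600). Its LSEC level was 1.09, 2.75 and 2.92 CPM alone and 84.3, 92.5 and 91.4 CPM in co-culture. The ranges of LSECs alone and Hepa1-6 cells alone overlapped, and those of the co-cultured cells were far apart. It fell 1.52-fold in Hepa1-6 cells (log2 fold change -0.60, SE 0.178, adjusted p = 0.0239) and rose 39.2-fold in LSECs (log2 fold change 5.29, SE 0.397, adjusted p = 0.00237). The difference between the responses was -5.93 on the log2 scale (SE 0.421, adjusted p = 4.93e-05). The Hepa1-6 fall missed the threshold without Hepa1-6 co-culture replicate 1 or 2 or Hepa1-6 alone replicate 1 or 3 (adjusted p = 0.0585 to 0.117).

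Pde1b, a calmodulin-dependent phosphodiesterase that breaks down cyclic nucleotides, also passed both own tests in opposite directions. In Hepa1-6 cells it went from 1.46, 1.5 and 1.25 CPM to 0.441, 0.984 and 0.701 CPM, 1.96-fold lower (adjusted p = 0.0238). In LSECs it went from 2.26, 2.66 and 2.47 CPM to 6.86, 6.03 and 5.68 CPM, 2.46-fold higher (adjusted p = 0.0136). Adamts7, a secreted metalloprotease, did so at a low Hepa1-6 level: 5.93, 6.35 and 6.26 CPM alone and 3.47, 4.29 and 5.6 CPM in co-culture (adjusted p = 0.0279). Its LSEC libraries held 78.5, 109 and 112 CPM alone and 169, 224 and 213 CPM in co-culture (1.98-fold, adjusted p = 0.0497). For both genes, the groups of a cell type did not overlap. Hepa1-6 minus LSEC, the change was -2.3 on the log2 scale (SE 0.337, adjusted p = 0.00497) for Pde1b and -1.49 on the log2 scale (SE 0.268, adjusted p = 0.0155) for Adamts7. The Pde1b change missed the threshold in Hepa1-6 cells without Hepa1-6 co-culture replicate 1 or 3 or Hepa1-6 alone replicate 1 or 2 (adjusted p = 0.059 to 0.115), and in LSECs without LSEC co-culture replicate 2 or 3 or LSEC alone replicate 2 or 3 (adjusted p = 0.0665 to 0.0911). That of Adamts7 missed it in Hepa1-6 cells without Hepa1-6 co-culture replicate 1 or 2 or Hepa1-6 alone replicate 1, 2 or 3 (adjusted p = 0.0681 to 0.157), and in LSECs without LSEC co-culture replicate 1, 2 or 3 or LSEC alone replicate 1, 2 or 3 (adjusted p = 0.0599 to 0.222). The Adamts7 difference missed it without Hepa1-6 co-culture replicate 2 or Hepa1-6 alone replicate 2 or 3 (adjusted p = 0.0519 to 0.0594).

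Vcam1, the adhesion molecule through which leukocytes bind endothelium, fell in Hepa1-6 cells from 50.2, 52.4 and 51.9 to 35, 35.8 and 37.9 CPM (1.42-fold, adjusted p = 8.47e-08). LSEC values were 138, 196 and 188 CPM alone and 234, 277 and 263 CPM in co-culture (adjusted p = 0.195, and 0.000133 with the replicate term). Vegfc, a growth factor for lymphatic endothelium, fell in Hepa1-6 cells from 32.3, 34 and 31.7 to 21.4, 24.5 and 24.9 CPM (1.38-fold, adjusted p = 1.64e-05). Both genes were higher in every co-cultured LSEC library than in any LSEC library alone. For Vegfc the LSEC values were 10.5, 7.98 and 7.86 CPM alone and 13.6, 12.4 and 10.8 CPM in co-culture (adjusted p = 0.395, and 0.0115 with the replicate term). Sh3tc1 was at 4.97 to 6.02 CPM in Hepa1-6 cells alone and 3.38 to 4.82 CPM in co-culture (adjusted p = 0.0333), and at 238 to 279 CPM alone and 392 to 406 CPM in co-culture in LSECs (adjusted p = 0.07, and 2.81e-05 with the replicate term). The responses differed by -1.08 on the log2 scale (SE 0.179, adjusted p = 0.0104) for Vcam1, -1.05 on the log2 scale (SE 0.185, adjusted p = 0.0145) for Sh3tc1 and -0.95 on the log2 scale (SE 0.193, adjusted p = 0.0294) for Vegfc. The Vegfc difference missed the threshold without Hepa1-6 co-culture replicate 1, 2 or 3 or Hepa1-6 alone replicate 1, 2 or 3 or LSEC co-culture replicate 2 or LSEC alone replicate 2 or 3 (adjusted p = 0.0655 to 0.0965), and that of Sh3tc1 without Hepa1-6 co-culture replicate 3 or Hepa1-6 alone replicate 2 (adjusted p = 0.0536 to 0.0549). The Hepa1-6 change of Sh3tc1 missed it without Hepa1-6 co-culture replicate 2 or 3 or Hepa1-6 alone replicate 1, 2 or 3 (adjusted p = 0.0512 to 0.17).

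**Figure D3:**
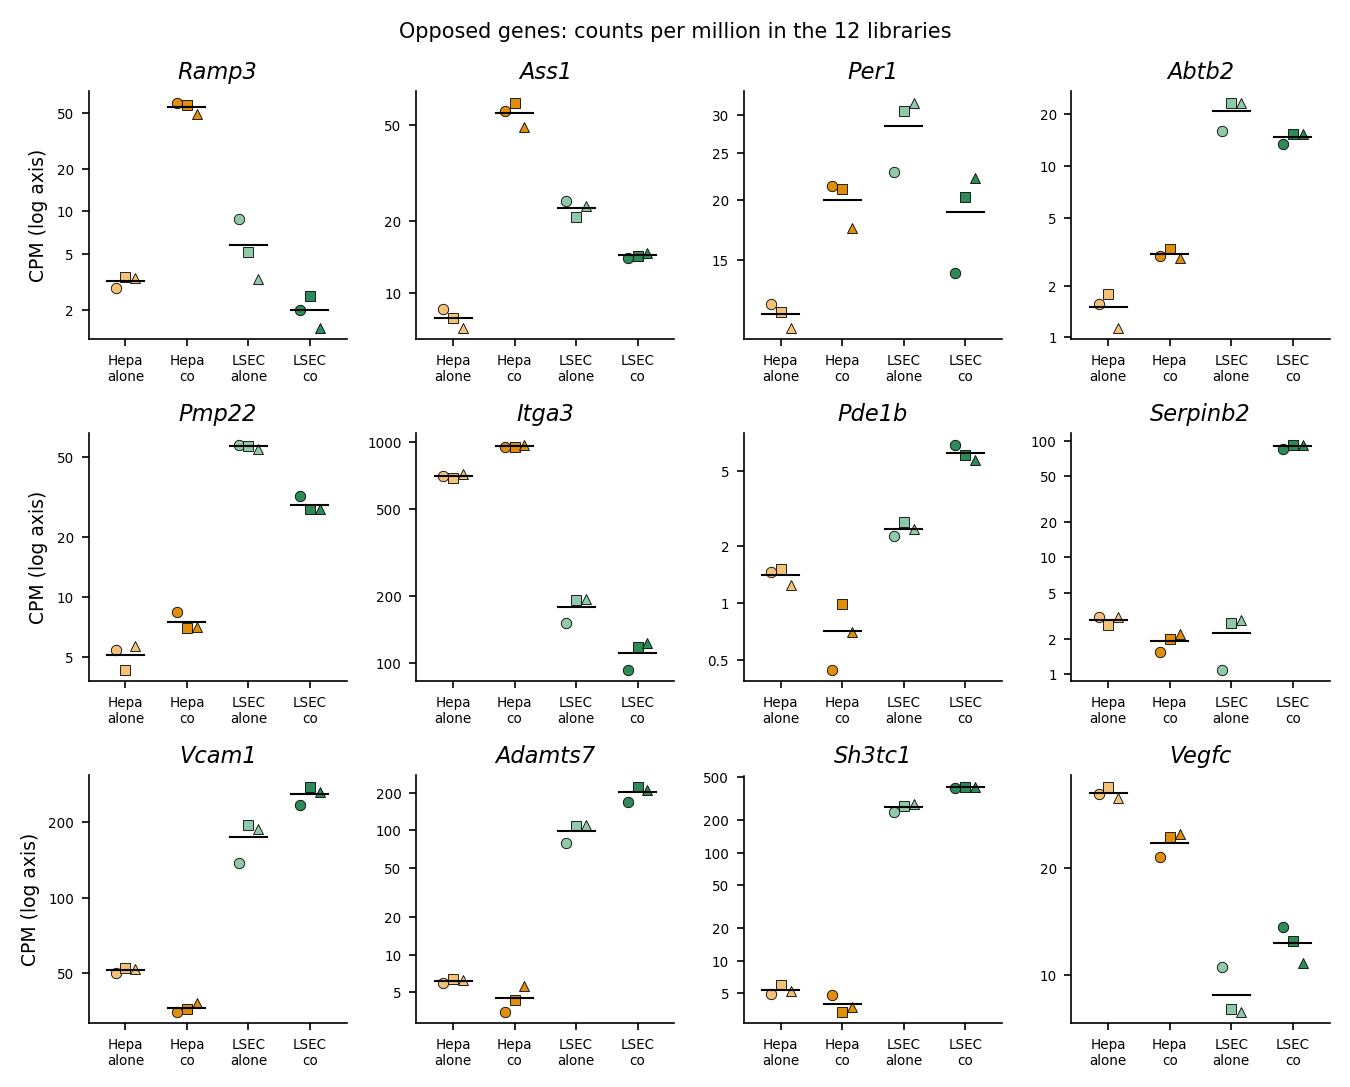
CPM (vertical axes, log scale) of the 12 named opposed genes in Hepa1-6 cells alone and co-cultured (Hepa alone, Hepa co) and in LSECs alone and co-cultured (LSEC alone, LSEC co); circles, squares and triangles are replicates 1, 2 and 3 and lines are means. From Ramp3 to Itga3 the Hepa1-6 groups step up and the LSEC groups step down, and from Pde1b to Vegfc the reverse.

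The sizes in the opposed class are a description, since entry needs LSEC ranges apart and a tested difference, which favours large LSEC changes. The 58 genes higher in co-cultured Hepa1-6 cells had a median change of 0.256 on the log2 scale there and of -0.718 in LSECs, and the LSEC change was the larger in 48. The 51 genes of the other direction had medians of -0.211 and 0.642, with the LSEC change the larger in 46, beside 7965 of 10906 genes expressed in both. With the own tests of both cells in place of the ranges, 25 genes were opposed, 16 of them up in Hepa1-6 cells. These were counted over all genes expressed in both, not within the 109. The LSEC test was passed by 20 of the 58 and 12 of the 51 without the replicate term, and by 58 and 49 with it. With the replicate term, in every test, 275 genes were opposed.

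Dusp14, a phosphatase of the dual-specificity family, was among the 5 genes with the smallest p toward Hepa1-6 cells. It rose from 8.54, 9.5 and 9.2 to 11.7, 11.4 and 11.8 CPM in Hepa1-6 cells (1.28-fold, adjusted p = 0.00548). It fell from 14, 12.9 and 13.5 to 4.83, 4.32 and 4.7 CPM in LSECs (2.99-fold, adjusted p = 0.00394). Dusp14 libraries in co-culture thus lay apart from those alone in both cells, and the responses differed by 1.91 on the log2 scale (SE 0.142, adjusted p = 5.5e-05).

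Immediate early genes, which growth factors and stress switch on within minutes, moved both ways in each cell. Of 26 tested in Hepa1-6 cells 9 rose and 5 fell, and of 28 in LSECs 3 rose and 2 fell (8 and 13 with the replicate term). Over all genes 8.5% rose and 7.03% fell in Hepa1-6 cells, and 2.18% and 0.911% in LSECs (16.7% and 16.6% with the replicate term), and the counts of this and the later lists are to be read beside these shares. Their responses differed in 7, higher in Hepa1-6 cells for 4 and in LSECs for 3 (12 and 8 with the replicate term). Of the 25 expressed in both cells, 3 were opposed under either model. No member was shared without the replicate term, and with it 4 rose in both cells and 3 fell in both. Fosl1, an AP-1 subunit, and Dusp5, a phosphatase that inactivates ERK, rose in Hepa1-6 cells and fell in LSECs. Fosl1 went from 34.1 ± 0.711 to 45.1 ± 2.54 CPM (SD, n = 3) in Hepa1-6 cells and from 74.4 ± 7.66 to 29.5 ± 2.92 CPM in LSECs, a difference of 1.74 on the log2 scale (SE 0.15, adjusted p = 0.00014). Dusp5 went from 14.7 ± 1.08 to 17.4 ± 1.13 and from 11.5 ± 0.499 to 7.14 ± 0.0641 CPM, a difference of 0.93 on the log2 scale (SE 0.141, adjusted p = 0.00591). Egr1, a zinc-finger factor of the same early wave, did the reverse, from 65.9 ± 1.35 to 54 ± 1.71 CPM in Hepa1-6 cells and from 20.9 ± 2.45 to 35.5 ± 2.05 CPM in LSECs. The median change over the 25 members expressed in both was 0.127 in Hepa1-6 cells and -0.27 in LSECs, against -0.00616 and -0.0382 over all genes expressed in both.

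Among targets of TGF-beta and BMP signalling, 9 of the 17 tested in Hepa1-6 cells rose and 1 fell. In LSECs 2 of 20 rose and 2 fell (6 and 6 with the replicate term, beside 16.7% and 16.6% of all genes). Ccn2, a matricellular protein, was opposed: it went from 80.0 ± 4.92 to 105 ± 5.58 CPM in Hepa1-6 cells and from 1727 ± 43.9 to 1094 ± 27.4 CPM in LSECs, and the responses differed by 1.05 on the log2 scale (SE 0.119, adjusted p = 0.000887). Its relative Ccn1 fell in both cells, by 1.1-fold in Hepa1-6 cells and 1.66-fold in LSECs. Fst, the secreted activin antagonist follistatin, was 1.67-fold higher in co-cultured Hepa1-6 cells (adjusted p = 0.00258). Its response was higher there than in LSECs by 0.86 on the log2 scale (SE 0.196, adjusted p = 0.0493). The omission of single libraries was not followed for Fst or the other genes named only from a list.

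Among the 45 genes that rose in both cells, Cyp1a1 stood alone in rising more in Hepa1-6 cells at a tested difference. Cyp1a1 is a monooxygenase that the aryl hydrocarbon receptor induces. It was at 99.2, 92.7 and 98.8 CPM in Hepa1-6 cells alone and 414, 388 and 370.5 CPM in co-culture (chr9:57687928-57703824). In LSECs it was at 299, 342 and 296 CPM alone and 668, 693 and 810.0 CPM in co-culture. Each cell's groups were well apart, and co-cultured Hepa1-6 cells reached a level above that of LSECs alone. The rise was 4.03-fold in Hepa1-6 cells (adjusted p = 1.37e-17) and 2.26-fold in LSECs (adjusted p = 0.0106), a difference of 0.80 on the log2 scale (SE 0.144, adjusted p = 0.0152). The difference missed the threshold without Hepa1-6 co-culture replicate 1 or 2 or Hepa1-6 alone replicate 1, 2 or 3 (adjusted p = 0.0518 to 0.0618), and the LSEC rise without LSEC co-culture replicate 2 or 3 or LSEC alone replicate 2 or 3 (adjusted p = 0.0614 to 0.0777).

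The other 5 named genes of this class rose more in LSECs. C3, the central complement component, was at 322, 322 and 339 CPM in Hepa1-6 cells alone and 705, 686 and 717 CPM in co-culture (2.14-fold, adjusted p = 2.41e-17). The LSEC libraries held it at 12.6, 22.1 and 19.3 CPM alone and 108, 133 and 115 CPM in co-culture (6.46-fold, adjusted p = 0.00369). C3 stayed higher in Hepa1-6 cells than in LSECs in every library. Slc7a2, a transporter of arginine and other cationic amino acids, went from 4.8, 4.36 and 4.41 to 8.27, 8.93 and 9.72 CPM in Hepa1-6 cells (1.99-fold, adjusted p = 9.4e-07). In LSECs it went from 1.92, 3.6 and 3.33 to 103, 168 and 153 CPM (47-fold, adjusted p = 0.00125). LSECs alone had less Slc7a2 than Hepa1-6 cells, and co-cultured LSECs had far more. The difference between the responses was -1.62 on the log2 scale (SE 0.243, adjusted p = 0.00574) for C3 and -4.6 on the log2 scale (SE 0.337, adjusted p = 5.5e-05) for Slc7a2.

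Cp (ceruloplasmin, the copper-carrying ferroxidase) rose in Hepa1-6 cells from 24.9, 26 and 25.4 to 40.8, 41.8 and 40.5 CPM (1.61-fold, adjusted p = 2.91e-09). In LSECs it rose from 3.01, 4.25 and 4.3 to 31, 36.7 and 38.8 CPM (9.02-fold, adjusted p = 0.00125). Co-cultured LSECs thus came close to the Hepa1-6 range. Socs3, the feedback inhibitor of JAK-STAT signalling, rose from 21.4, 20.1 and 21.3 to 36.2, 33 and 27.9 CPM in Hepa1-6 cells (1.54-fold, adjusted p = 4.89e-06). In LSECs Socs3 rose from 25.7, 22.6 and 24.8 to 147, 111 and 106 CPM (4.86-fold, adjusted p = 0.00278), with no overlap in either cell. Ptges, the inducible prostaglandin E synthase, rose from 7.57, 8.1 and 6.99 to 12.5, 11.6 and 10.9 CPM in Hepa1-6 cells (1.54-fold, adjusted p = 5.68e-05) and from 1.02, 0.991 and 1.49 to 70.7, 57.1 and 54.1 CPM in LSECs (50.7-fold, adjusted p = 0.000426). Hepa1-6 minus LSEC, the change was -2.52 on the log2 scale (SE 0.195, adjusted p = 7.1e-05) for Cp, -1.69 on the log2 scale (SE 0.196, adjusted p = 0.00112) for Socs3 and -5.07 on the log2 scale (SE 0.235, adjusted p = 1.42e-06) for Ptges.

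The largest difference of the shared class was in a matrix protease. Mmp9, a gelatinase, was at 4.78, 4.49 and 4.79 CPM in Hepa1-6 cells alone and 6.06, 6.43 and 6.73 CPM in co-culture (1.37-fold, adjusted p = 0.00733). LSECs held 0.981, 0.849 and 0.746 CPM alone and 103, 82.4 and 73.7 CPM in co-culture (chr2:164940326-164955850), a 97.1-fold rise (log2 fold change 6.6, SE 0.24, adjusted p = 0.000426). Mmp13, a collagenase, rose from 54.5, 57.5 and 54.1 to 64.4, 67.5 and 62.3 CPM in Hepa1-6 cells (1.17-fold) and from 16.3, 22.6 and 18.2 to 318, 343 and 323 CPM in LSECs (16.9-fold). Both proteases were lower in LSECs than in Hepa1-6 cells when each grew alone and higher in LSECs after co-culture. The responses differed by -6.18 on the log2 scale (SE 0.21, adjusted p = 2.84e-07) for Mmp9 and -3.88 on the log2 scale (SE 0.164, adjusted p = 1.27e-06) for Mmp13. Of 28 matrix genes tested in Hepa1-6 cells 11 rose and 1 fell, and of 37 in LSECs 6 rose and 1 fell (14 and 13 with the replicate term). Timp2 and Sparc, a protease inhibitor and a matricellular protein, were opposed. Timp2 rose 1.12-fold in Hepa1-6 cells and fell 1.95-fold in LSECs, a difference of 1.09 on the log2 scale (SE 0.15, adjusted p = 0.00313), while Sparc rose 1.19-fold in Hepa1-6 cells and was 1.3-fold lower in LSECs (adjusted p = 0.309, and 0.000148 with the replicate term).

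**Figure D4:**
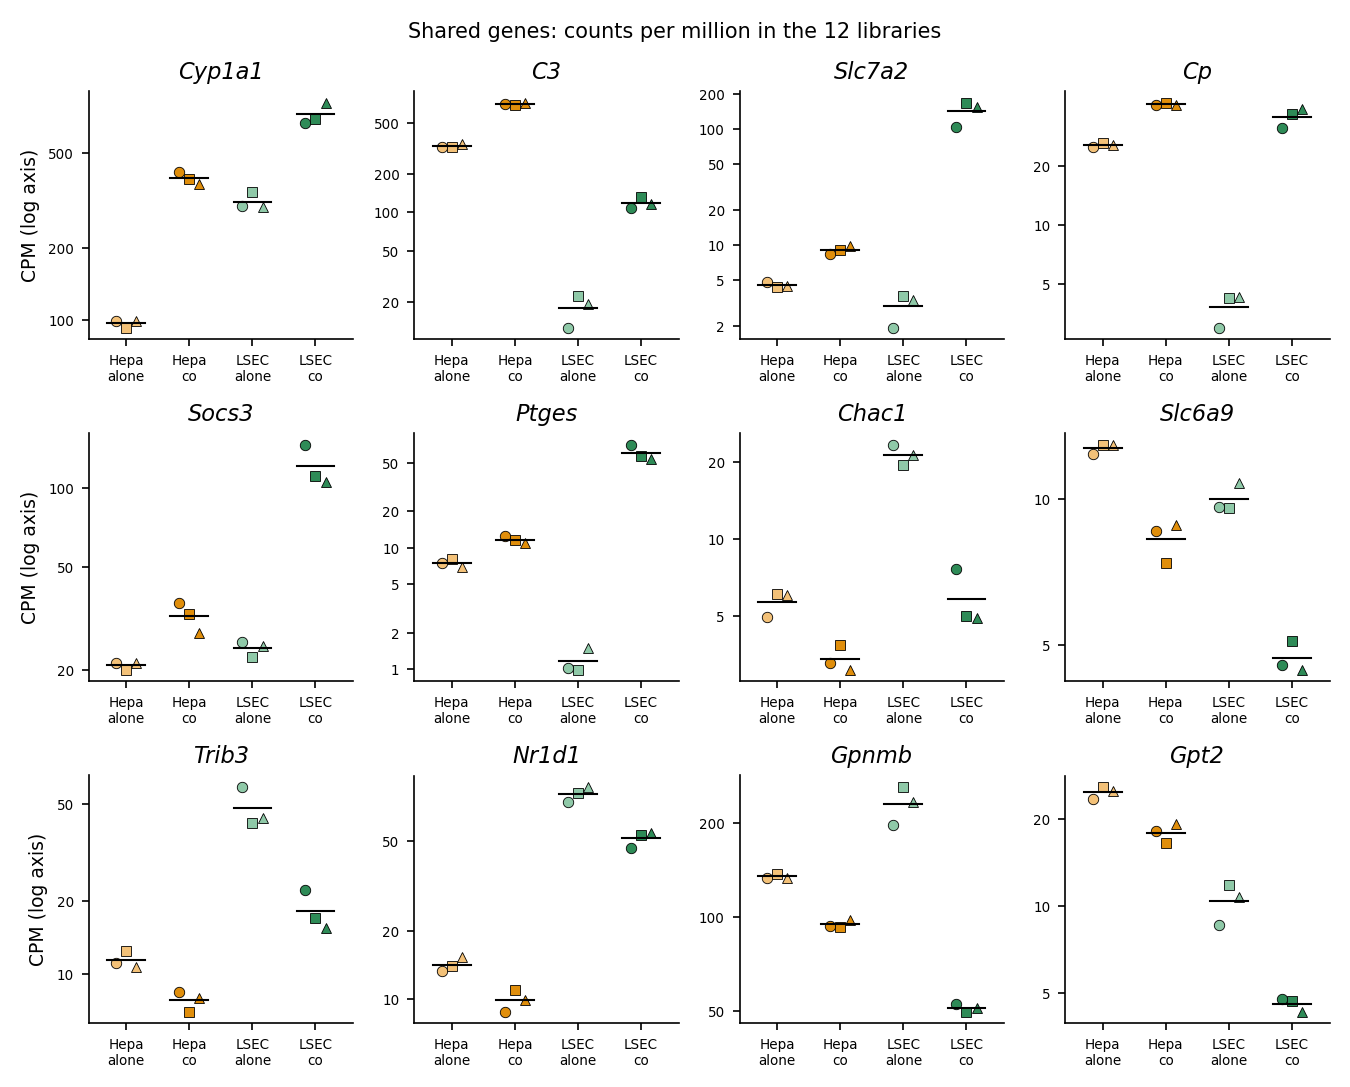
CPM (vertical axes, log scale) of 12 named shared genes in the 4 groups (Hepa, Hepa1-6 cells; co, co-culture); circles, squares and triangles are replicates 1, 2 and 3 and lines are means. From Cyp1a1 to Ptges both cell types step up, and from Chac1 to Gpt2 both step down.

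NF-kB subunits and the inhibitors that NF-kB itself induces rose in both cells. Of 19 tested, 10 rose in Hepa1-6 cells and 11 in LSECs (17 rose and 2 fell with the replicate term), and 7 rose in both. The response was higher in LSECs for 10 and in Hepa1-6 cells for none (15 and 2 with the replicate term). The median change over the 18 members expressed in both cells was 0.173 in Hepa1-6 cells and 0.865 in LSECs. Nfkbia, the inhibitor that holds NF-kB in the cytoplasm, was at 76.1, 77.3 and 80.2 CPM in Hepa1-6 cells alone and 105, 103 and 109 CPM in co-culture (adjusted p = 1.62e-08). Its LSEC level was 135, 126 and 122 CPM alone and 429, 340.5 and 326 CPM in co-culture (adjusted p = 0.00702). Nfkbia was thus raised in all co-cultured libraries, 1.36-fold in Hepa1-6 cells and 2.79-fold in LSECs, and the responses differed by -1.07 on the log2 scale (SE 0.149, adjusted p = 0.00339). Zc3h12a, an RNase that destroys cytokine messages, rose 3.55-fold in LSECs (adjusted p = 0.0029) and its change in Hepa1-6 cells was -0.038 on the log2 scale (adjusted p = 0.857).

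A motif of NF-kB, GGANTTTCC on either strand, was looked for in the 250 bases before each RefSeq start on GRCm38.p6, since members of this list and the chemokines moved together in LSECs. It stood before 5 of 16 NF-kB list genes with a window and 6 of 24 cytokine genes, against 1.25% of 27025 genes. By class, it stood before 1 of 84 opposed genes, 4 of 34 shared genes whose responses differed and 1 of 14 other shared genes. Among one-sided genes that were not opposed, it stood before 4 of 57 LSEC-sided and 0 of 5 Hepa1-6-sided genes. A match describes these letters and was not tested as a site. Nfkbia has 2 matches in its window, and its stretch below holds the 1 nearest its start. Stretches around it are given for Nfkbia (chr12:55492648-55492716, minus strand), the adhesion molecule Icam1 (chr9:21015747-21015835, plus strand) and the chemokines Cxcl3 (chr5:90785989-90786077, plus strand) and Cxcl1 (chr5:90891135-90891223, plus strand), each read along its gene with the motif in capitals.
Nfkbia: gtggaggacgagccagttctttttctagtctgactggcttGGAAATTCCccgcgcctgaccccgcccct
Icam1: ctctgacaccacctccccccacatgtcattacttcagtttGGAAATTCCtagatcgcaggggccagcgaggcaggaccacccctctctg
Cxcl3: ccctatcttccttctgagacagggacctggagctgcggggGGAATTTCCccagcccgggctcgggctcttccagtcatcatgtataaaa
Cxcl1: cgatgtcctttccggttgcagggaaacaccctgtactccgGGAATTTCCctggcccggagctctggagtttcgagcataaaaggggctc

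Nfkbia rose in both cells and Cxcl1 in LSECs alone by the tests, so the same letters stood before genes of different classes. Icam1 was at 76.9 ± 1.5 CPM in Hepa1-6 cells alone and 90.1 ± 5.16 CPM in co-culture (adjusted p = 0.000423), and at 171 ± 1.85 CPM alone and 600.2 ± 23.2 CPM in co-culture in LSECs (adjusted p = 0.00155, and 1.88e-08 with the replicate term).

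Acute phase genes, which the liver raises in inflammation, rose in both cells too. Of 11 tested in Hepa1-6 cells 8 rose, of 20 tested in LSECs 9 rose (14 with the replicate term), none fell, and 4 of those expressed in both cells rose in both (C3, Cp, Socs3 and Il4ra, a receptor subunit for the type 2 interleukins). The response was higher in LSECs for 5 and in Hepa1-6 cells for none. Il1rn, the secreted antagonist of interleukin 1, was at 6.04, 5.11 and 6.24 CPM in Hepa1-6 cells alone and 7.65, 5.98 and 8.16 CPM in co-culture. LSEC values were 11.8, 15.3 and 13.5 CPM alone and 205, 187 and 185 CPM in co-culture, 13.9-fold higher (adjusted p = 0.000426). Haptoglobin (Hp) rose in both, 5.44-fold in Hepa1-6 cells and 10.5-fold in LSECs, whose level alone was 0.23 CPM. Over the 8 members expressed in both, the median change was 0.484 in Hepa1-6 cells and 1.75 in LSECs.

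Entry to the shared class needs a pass in LSECs, whose libraries spread more, so the class favours large LSEC changes. As a description, the fitted change was larger in LSECs in 63 of its 64 genes, in 642 of the 721 shared with the replicate term, and in 7965 of 10906 genes expressed in both. The 45 shared rises had a median of 0.316 in Hepa1-6 cells and 1.69 in LSECs, and 36 of them were at least 2-fold in LSECs against 2 in Hepa1-6 cells. The 19 shared falls had medians of -0.278 and -1.13. The difference was past the threshold in 48 of the 64, 47 of them larger in LSECs. In 2 of the 45 rises the LSEC gain was under 1% of the Hepa1-6 level: Enpp2 went from 0.413 to 2.06 CPM in LSECs beside 1085 CPM in co-cultured Hepa1-6 cells, and Dnah6 from 0.422 to 1.69 beside 164 CPM. The part of Hepa1-6 RNA in these gains was not tested; in the other 43 the gain was at least 14.3% of the Hepa1-6 level. Under the replicate term, 721 genes were shared, 335 up and 386 down.

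Genes that cells raise in amino acid shortage were lower after co-culture in both cell types, and 9 of the 19 shared falls were members of that list. Of 27 integrated stress response genes tested in Hepa1-6 cells 13 fell and 2 rose, and of 29 in LSECs 10 fell and 1 rose (20 fell and 3 rose with the replicate term). The median change over the 26 expressed in both was -0.21 in Hepa1-6 cells and -0.95 in LSECs. Chac1, which degrades glutathione, fell from 4.94, 6.11 and 6.03 to 3.27, 3.86 and 3.07 CPM in Hepa1-6 cells (1.68-fold, adjusted p = 0.000462). In LSECs it fell from 23.5, 19.5 and 21.3 to 7.63, 4.98 and 4.9 CPM (3.75-fold, adjusted p = 0.0111). The groups did not overlap in either cell, and the larger LSEC fall missed the threshold for a difference (adjusted p = 0.0596, and 0.000666 with the replicate term). It passed without LSEC co-culture replicate 1 (adjusted p = 0.00674), and the LSEC fall itself missed the threshold without LSEC co-culture replicate 2 or 3 or LSEC alone replicate 2 or 3 (adjusted p = 0.0528 to 0.0716).

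Trib3, a pseudokinase induced by ATF4, fell from 11, 12.4 and 10.6 to 8.38, 6.96 and 7.95 CPM in Hepa1-6 cells (1.47-fold, adjusted p = 0.000369) and from 58.9, 41.9 and 44 to 22.1, 16.9 and 15.4 CPM in LSECs (2.73-fold, adjusted p = 0.0276). Slc6a9, a glycine transporter, fell from 12.4, 12.9 and 13 to 8.59, 7.39 and 8.84 CPM and from 9.62, 9.6 and 10.8 to 4.54, 5.09 and 4.45 CPM (1.54-fold and 2.18-fold). Neither gene's fall was shown to differ between the cells without the replicate term (adjusted p = 0.12 and 0.235), and with it both did (0.000193 and 0.0399). Atf5, Mthfd2, Asns, Psat1 and Slc7a5, which are a stress transcription factor, enzymes of one-carbon, asparagine and serine metabolism and an amino acid transporter, fell in both cells and fell more in LSECs. Asns went from 391, 407 and 399 to 349.6, 347 and 339.7 CPM in Hepa1-6 cells and from 114, 94.8 and 97 to 45.3, 35.1 and 33.1 CPM in LSECs, a difference of 1.22 on the log2 scale (SE 0.172, adjusted p = 0.00377). Asns libraries in co-culture were below all those alone in each cell. The LSEC fall missed the threshold for Trib3 without LSEC co-culture replicate 2 or 3 or LSEC alone replicate 2 or 3 (adjusted p = 0.0817 to 0.157), and for Slc6a9 without LSEC co-culture replicate 1, 2 or 3 or LSEC alone replicate 2 or 3 (adjusted p = 0.0536 to 0.111). The Trib3 difference passed without LSEC co-culture replicate 1 (adjusted p = 0.0405).

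Slc7a11, the cystine importer, was the member of the list that rose in both cells by the tests. It was at 106, 109.9 and 111 CPM in Hepa1-6 cells alone and 126, 117 and 128 CPM in co-culture (1.13-fold, adjusted p = 0.0013). In LSECs it was at 5.16, 9.2 and 10.8 CPM alone and 22.2, 34 and 33.4 CPM in co-culture (3.5-fold, adjusted p = 0.0388). Slc7a11 is also a target of the antioxidant factor NRF2 and is in that list as well. The difference between the responses was -1.66 on the log2 scale (SE 0.332, adjusted p = 0.0279), higher in LSECs. The ATF4 motif TGATGNAA, on either strand, stood in the 250 bases before 7 of 27 list genes with a window, against 3.91% of genes. It is shown in capitals for Chac1 (chr2:119351009-119351096, plus strand) and Asns (chr6:7693210-7693272, minus strand), which fell, and for Slc7a11 (chr3:50443614-50443700, minus strand), which rose and has 2 matches.
Chac1: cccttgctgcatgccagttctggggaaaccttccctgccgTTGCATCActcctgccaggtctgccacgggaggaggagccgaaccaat
Asns: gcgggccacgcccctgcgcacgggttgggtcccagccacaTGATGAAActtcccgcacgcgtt
Slc7a11: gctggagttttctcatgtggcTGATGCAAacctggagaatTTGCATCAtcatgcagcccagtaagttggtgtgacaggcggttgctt

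Cytosolic tRNA synthetases, which load amino acids onto tRNAs, followed the same direction. Of 20 tested, 11 fell in Hepa1-6 cells and 2 in LSECs (15 fell and 1 rose with the replicate term), and the median change was -0.114 in Hepa1-6 cells and -0.444 in LSECs. The members called in LSECs, Aars and Rars, were not among the 11 called in Hepa1-6 cells, and their responses differed. Aars was 1.68-fold lower in co-cultured LSECs (adjusted p = 0.0252) and 1.01-fold lower in Hepa1-6 cells (adjusted p = 0.849), a difference of 0.72 on the log2 scale (SE 0.0963, adjusted p = 0.00248). Once replicate number was a term, 11 synthetases fell in both cells.

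Genes outside these lists fell together as well. Gpnmb, a transmembrane glycoprotein of macrophages and tumour cells, fell from 133, 137 and 134 to 93.8, 92.7 and 97.4 CPM in Hepa1-6 cells (1.42-fold, adjusted p = 2.92e-10). In LSECs it fell from 196, 260.5 and 234 to 52.5, 49.7 and 51.1 CPM (4.6-fold, adjusted p = 0.00125), a difference of 1.66 on the log2 scale (SE 0.142, adjusted p = 0.000138). Gpnmb is one of 14 listed markers of lipid-associated macrophages, of which 4 fell and none rose in LSECs (7 and 4 with the replicate term), and the part of those cells in its LSEC fall was not tested. Gpt2, a mitochondrial alanine aminotransferase, fell 1.38-fold in Hepa1-6 cells (23.5 to 25.9 CPM alone, 16.5 to 19.2 CPM in co-culture) and 2.31-fold in LSECs (8.62 to 11.8 CPM alone, 4.3 to 4.78 CPM in co-culture). Nr1d1, the clock repressor REV-ERB alpha, fell 1.44-fold in Hepa1-6 cells (13.2 to 15.3 CPM alone, 8.74 to 10.9 CPM in co-culture, adjusted p = 0.000348) and 1.62-fold in LSECs (74.3 to 87.2 CPM alone, 46.6 to 54.6 CPM in co-culture, adjusted p = 0.0475). The gap between the falls was 0.14 (SE 0.162, adjusted p = 1, and 0.41 with the replicate term) for Nr1d1 and 0.71 (SE 0.181, adjusted p = 0.0861, and 0.00409) for Gpt2. The Gpt2 gap passed without LSEC alone replicate 1 (adjusted p = 0.0098). The LSEC fall missed the threshold for Nr1d1 without LSEC co-culture replicate 1, 2 or 3 or LSEC alone replicate 2 or 3 (adjusted p = 0.127 to 0.224), and for Gpt2 without LSEC co-culture replicate 1, 2 or 3 or LSEC alone replicate 2 or 3 (adjusted p = 0.0554 to 0.125).

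Inflammatory cytokines and chemokines moved one way in LSECs and both ways in Hepa1-6 cells. In LSECs 20 of 33 tested rose and none fell (28 and none with the replicate term), whereas 5 of the 18 tested in Hepa1-6 cells rose and 4 fell. The response was higher in LSECs for 11 and in Hepa1-6 cells for 1, Il11 (18 and 1 with the replicate term). The 5 that rose in Hepa1-6 cells were Cxcl3, Il11, Tnfsf15, Il33 and Il23a, and the 4 that fell were Ccl20, Vegfc, Cx3cl1 and Csf1. Over the 14 members expressed in both cells the median change was 0.0766 in Hepa1-6 cells and 1.27 in LSECs.

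The CXC chemokines Cxcl1, Cxcl5 and Cxcl3, which draw neutrophils, were already present in Hepa1-6 cells. Cxcl1 was at 35.6, 37.8 and 35.8 CPM in Hepa1-6 cells alone and 34.6, 38 and 32.5 CPM in co-culture (adjusted p = 0.586). In LSECs it rose from 22.4, 17.6 and 18.9 to 283, 244 and 236 CPM (12.6-fold, adjusted p = 0.00056). Its Hepa1-6 groups overlapped and its LSEC groups did not. Cxcl5 was at 43.1, 41.3 and 43.2 CPM alone and 47.3, 45.8 and 41.6 CPM in co-culture in Hepa1-6 cells (adjusted p = 0.376), and rose in LSECs from 0.704, 0.651 and 1.03 to 18.6, 17.5 and 16.3 CPM (21.5-fold, adjusted p = 0.000711). Cxcl3 rose in both, from 74.9, 80.4 and 74.5 to 85.4, 94 and 86.4 CPM in Hepa1-6 cells (1.16-fold, adjusted p = 0.00146) and from 0.427, 0.566 and 0.402 to 46.6, 31.8 and 27.1 CPM in LSECs (73.6-fold, adjusted p = 0.000711). Cxcl5 and Cxcl3 stayed lower in co-cultured LSECs than in Hepa1-6 cells, whereas Cxcl1 ended higher. Hepa1-6 minus LSEC, the change was -3.75 on the log2 scale (SE 0.165, adjusted p = 1.35e-06) for Cxcl1, -4.38 on the log2 scale (SE 0.201, adjusted p = 1.42e-06) for Cxcl5 and -6.03 on the log2 scale (SE 0.292, adjusted p = 2.02e-06) for Cxcl3. These chemokine genes are closely related, so reads that they share may have been split between them.

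Ccl9, a chemokine of the CC family, was at 22.6, 22.4 and 22.2 CPM in Hepa1-6 cells alone and 23.9, 24 and 23.4 CPM in co-culture (adjusted p = 0.417). In LSECs it rose from 27.3, 24 and 17 to 378, 273 and 262 CPM (13-fold, adjusted p = 0.00225), and the responses differed by -3.65 on the log2 scale (SE 0.254, adjusted p = 4.34e-05). Both cells held like amounts alone, and the co-cultured LSECs stood far above. Urah, an enzyme of urate breakdown, was at 5.79, 5.49 and 4.59 CPM alone and 5.41, 4.44 and 4.75 CPM in co-culture in Hepa1-6 cells (adjusted p = 0.611). In LSECs its values were 0, 0.0566 and 0 CPM alone and 3.82, 1.82 and 1.43 CPM in co-culture (adjusted p = 0.0154). Urah had reads in only 1 of the 3 LSEC libraries alone, so its fitted difference of -6.98 on the log2 scale (SE 0.812, adjusted p = 0.00112) rests on almost no counts there. Its LSEC rise missed the threshold without LSEC co-culture replicate 2 or LSEC alone replicate 2 or 3 (adjusted p = 0.0612 to 0.0777).

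Of the 79 LSEC-sided genes, 55 rose and 24 fell. Their median absolute change was 1.37 in LSECs and 0.0481 in Hepa1-6 cells, sizes that the class rule itself sets. Arhgap19 fell in LSECs from 30.0, 42.4 and 36 to 5.72, 7.24 and 7.46 CPM (5.43-fold, adjusted p = 0.00237). In Hepa1-6 cells it was at 55.8, 57.9 and 59.5 CPM alone and 57.6, 55.9 and 57.5 CPM in co-culture (log2 fold change -0.02, SE 0.0413, adjusted p = 0.823), and the responses differed by 2.39 on the log2 scale (SE 0.193, adjusted p = 9.35e-05). The Hepa1-6 groups overlapped and the LSEC groups were far apart. Ccdc148, a coiled-coil protein, fell from 6.36, 7.62 and 4.93 to 0.314, 0.413 and 0.602 CPM in LSECs (14.6-fold, adjusted p = 0.00323), with 0.868 to 1.15 CPM alone and 1.06 to 1.51 CPM in co-culture in Hepa1-6 cells. Acsbg1, an acyl-CoA synthetase, fell from 2.79, 2.12 and 2.52 to 0.628, 0.743 and 0.631 CPM (3.81-fold, adjusted p = 0.0104), with 17 to 18.5 CPM alone and 19.1 to 19.5 CPM in co-culture in Hepa1-6 cells.

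Acsbg1 is also one of the opposed genes, since its Hepa1-6 groups did not overlap. Sphk1, which makes sphingosine 1-phosphate, fell in LSECs from 13.1, 7.9 and 8.09 to 3.74, 2.53 and 3.3 CPM (3.12-fold, adjusted p = 0.0432), with 1.02 to 1.29 CPM alone and 0.984 to 1.26 CPM in co-culture in Hepa1-6 cells. The responses differed by 4.06 on the log2 scale (SE 0.39, adjusted p = 0.000303) for Ccdc148, 2.01 on the log2 scale (SE 0.183, adjusted p = 0.000198) for Acsbg1 and 1.61 on the log2 scale (SE 0.343, adjusted p = 0.0377) for Sphk1. The Sphk1 difference missed the threshold without Hepa1-6 co-culture replicate 1, 2 or 3 or Hepa1-6 alone replicate 1, 2 or 3 or LSEC co-culture replicate 2 or 3 (adjusted p = 0.0671 to 0.12), and its LSEC fall without LSEC co-culture replicate 1, 2 or 3 or LSEC alone replicate 2 or 3 (adjusted p = 0.0936 to 0.187). The LSEC fall of Acsbg1 missed it without LSEC co-culture replicate 2 or 3 or LSEC alone replicate 3 (adjusted p = 0.0607 to 0.0718). With the replicate term, 1561 genes were LSEC-sided, 880 up and 681 down.

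The 16 Hepa1-6-sided genes, 10 up and 6 down, had a median absolute change of 0.68 in Hepa1-6 cells and 0.245 in LSECs. Crem, a modulator of transcription driven by cyclic AMP, rose in Hepa1-6 cells from 6.39, 5.51 and 5.12 to 12.5, 13.4 and 12.5 CPM (2.27-fold, adjusted p = 1.65e-08). The LSEC libraries held it at 45.3, 38.4 and 37.8 CPM alone and 35.3, 31.7 and 32.6 CPM in co-culture (adjusted p = 0.412, and 0.00622 with the replicate term). Crem was lower in every co-cultured LSEC library, so it is also opposed. Gpr137b, a lysosomal membrane protein, rose in Hepa1-6 cells from 2.22, 2.72 and 2.49 to 7.62, 8.1 and 5.72 CPM (2.86-fold, adjusted p = 1.48e-07), beside 78.7 to 87.1 CPM alone and 68.5 to 75.5 CPM in co-culture in LSECs (adjusted p = 0.44, and 0.00638 with the replicate term). It has a near-identical pseudogene, which makes its counts uncertain.

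Arg2, the mitochondrial arginase, rose in Hepa1-6 cells from 7.33, 7.35 and 8.66 to 14.6, 15.6 and 13.7 CPM (1.88-fold, adjusted p = 2.8e-07). Its LSEC level was 4.37, 3.79 and 2.92 CPM alone and 3.74, 2.89 and 3.53 CPM in co-culture, which overlapped (adjusted p = 0.911). Dusp1, a phosphatase that ends MAP kinase signals, rose in Hepa1-6 cells from 12.9, 11.9 and 11.9 to 24, 23.4 and 21.1 CPM (1.87-fold, adjusted p = 1.46e-08), beside 138, 131 and 137 CPM alone and 162, 145 and 147 CPM in co-culture in LSECs (adjusted p = 0.829). Arg2 and Dusp1 were the named genes of this group whose LSEC change missed the threshold with the replicate term too (adjusted p = 0.55 and 0.07). Even so, Dusp1 was higher in every co-cultured LSEC library than in any LSEC library alone, the direction of its Hepa1-6 rise. The difference between the responses was 1.73 on the log2 scale (SE 0.189, adjusted p = 0.000728) for Gpr137b, 1.46 on the log2 scale (SE 0.161, adjusted p = 0.000732) for Crem, 1.04 on the log2 scale (SE 0.234, adjusted p = 0.0476) for Arg2 and 0.74 on the log2 scale (SE 0.122, adjusted p = 0.00926) for Dusp1. The Arg2 difference missed the threshold without Hepa1-6 co-culture replicate 1, 2 or 3 or Hepa1-6 alone replicate 1, 2 or 3 or LSEC co-culture replicate 2 or 3 or LSEC alone replicate 2 (adjusted p = 0.0786 to 0.142).

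Secreted ligands were among the genes that fell on the Hepa1-6 side. Pdgfb, a growth factor for mural and stellate cells, fell from 32.8, 31.2 and 30.0 to 18.1, 19.2 and 21.4 CPM (1.6-fold, adjusted p = 2.55e-07), and was at 254, 244 and 234 CPM alone and 348, 289.9 and 287 CPM in co-culture in LSECs (adjusted p = 0.44, and 0.0017 with the replicate term). Gas6, the ligand of the receptor kinases Axl, Tyro3 and Mertk, fell from 46.1, 44.5 and 43.7 to 29.3, 28.4 and 31.9 CPM (1.5-fold, adjusted p = 7.07e-08), and was at 246, 210.0 and 222 CPM alone and 270.3, 259 and 259 CPM in co-culture in LSECs (adjusted p = 0.705, and 0.0225 with the replicate term). Both were higher in every co-cultured LSEC library than alone, as Vegfc was, so these 3 ligands are opposed by ranges. Zfp362, a zinc-finger protein, fell 1.24-fold in Hepa1-6 cells (15.9 to 16.4 CPM alone, 12.2 to 13.8 CPM in co-culture, adjusted p = 0.00624), with 34.5 to 36.9 CPM alone and 40.5 to 41.8 CPM in co-culture in LSECs (adjusted p = 0.628, and 0.0494 with the replicate term). Hepa1-6 minus LSEC, the change was -1.02 on the log2 scale (SE 0.143, adjusted p = 0.00374) for Pdgfb, -0.80 on the log2 scale (SE 0.12, adjusted p = 0.00529) for Gas6 and -0.53 on the log2 scale (SE 0.117, adjusted p = 0.0441) for Zfp362. The Zfp362 difference missed the threshold without Hepa1-6 co-culture replicate 1, 2 or 3 or Hepa1-6 alone replicate 1, 2 or 3 or LSEC co-culture replicate 1, 2 or 3 or LSEC alone replicate 2 or 3 (adjusted p = 0.0556 to 0.146). Under the replicate term, the LSEC change passed the threshold in 10 of the 16 genes, and 209 genes were Hepa1-6-sided.

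Among the genes expressed in LSECs only, 31 differed, and 23 of these passed the LSEC test itself (20 rose and 3 fell). Csf3, which encodes granulocyte colony-stimulating factor, rose from 1.83, 1.13 and 1.29 to 139, 82.4 and 78 CPM in LSECs (67.9-fold, adjusted p = 0.00125), with 0, 0.243 and 0.0891 CPM alone and 0.206, 0.176 and 0.136 CPM in co-culture in Hepa1-6 cells. Itgam, an integrin of macrophages and neutrophils, rose from 5.44, 14 and 13.9 to 166, 304 and 282 CPM (22.2-fold, adjusted p = 0.0065). Slamf9, a receptor of the SLAM family on myeloid cells, rose from 8.13, 4.53 and 3.84 to 92, 53.8 and 51.6 CPM (11.6-fold, adjusted p = 0.00999). In all 3 genes every co-cultured LSEC library exceeded every LSEC library alone. The responses differed by -5.6 on the log2 scale (SE 0.995, adjusted p = 0.0149) for Csf3, -4.04 on the log2 scale (SE 0.696, adjusted p = 0.0131) for Itgam and -3.89 on the log2 scale (SE 0.589, adjusted p = 0.0061) for Slamf9. The difference missed the threshold for Csf3 without Hepa1-6 alone replicate 2 or 3 (adjusted p = 0.0516 to 0.264), and for Itgam without Hepa1-6 alone replicate 3 (adjusted p = 0.0787). The LSEC rise of Slamf9 missed it without LSEC alone replicate 2 or 3 (adjusted p = 0.0535 to 0.0632).

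Itgam is a macrophage marker, and the marker list moved in both directions in LSECs: Itgam, Cd14 and Adgre1 rose and Vsig4, Cd5l and Cd163 fell among 18 tested (8 rose and 7 fell with the replicate term). Adgre1 (F4/80) went from 119 to 529 CPM and the Kupffer cell lectin Clec4f from 40.2 to 48.5 CPM. Of the neutrophil markers, S100a8 went from 0.44 to 10.2 CPM, and 6 of 10 were at 0 alone and 3 in co-culture; the T cell marker Cd3e had no read in LSECs alone. Sinusoidal markers, 21 found, summed to 8272 to 9553 CPM alone and 10890 to 12470 CPM in co-culture. The part of macrophages in the LSEC responses was not tested.

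Genes expressed in Hepa1-6 cells only gave 34 differences, and 12 passed the Hepa1-6 test itself (10 rose and 2 fell). Il11, a cytokine of the interleukin 6 family, rose from 0.494, 0.354 and 0.512 to 10.3, 10.2 and 10.5 CPM in Hepa1-6 cells (22.7-fold, log2 fold change 4.51, SE 0.157, adjusted p = 1.5e-14). LSEC values were 0.448, 0.651 and 0.545 CPM alone and 0.314, 0.413 and 0.143 CPM in co-culture (adjusted p = 0.457, and 0.155 with the replicate term). The co-cultured Hepa1-6 libraries were nearly identical to each other and far above all the others, and the responses differed by 5.39 on the log2 scale (SE 0.419, adjusted p = 7.55e-05). Ccl20, a chemokine for cells with the receptor CCR6, fell from 22.9, 22.4 and 20.6 to 12.3, 12.8 and 11.9 CPM in Hepa1-6 cells (1.78-fold, adjusted p = 3.45e-08). In LSECs it rose from 0, 0.113 and 0 to 2.08, 1.02 and 1.35 CPM (adjusted p = 0.0455), a call lost without LSEC co-culture replicate 1, 2 or 3 or LSEC alone replicate 1, 2 or 3 (adjusted p = 0.0552 to 0.163). Ccl20 stayed higher in Hepa1-6 cells in every library, and the responses differed by -6.14 on the log2 scale (SE 0.685, adjusted p = 0.000882). Ocstamp, a membrane protein known from osteoclast fusion, rose from 10.1, 8.86 and 10.5 to 16.9, 17.2 and 14.1 CPM in Hepa1-6 cells (1.63-fold, adjusted p = 9.91e-06), against 0.107, 0.34 and 0.229 CPM in LSECs alone and no read in co-cultured LSECs.

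The remaining one-cell genes named by rule rest on traces in the cell that does not express them. Far1 (a fatty acyl-CoA reductase), Arhgap10 and C4b (a complement component) had no read in Hepa1-6 cells alone and means of 0.541, 0.229 and 0.119 CPM in co-culture, beside 71.7, 17.2 and 37.2 CPM in co-cultured LSECs. Inava and Epb41l4b had no read in LSECs alone and 0.248 and 0.201 CPM in co-culture, beside 44.4 and 81.7 CPM in Hepa1-6 cells. Those LSEC levels are 0.558% and 0.246% of the Hepa1-6 level. The summed level of the 198 genes picked above as marking Hepa1-6 cells gained 0.207%, and the median gain of those genes was 0. Inava and Epb41l4b meet the rule for those genes themselves, so the sets compared overlap. The gains of Far1, Arhgap10 and C4b in Hepa1-6 cells were 0.755%, 1.33% and 0.321% of the LSEC level. The summed level of the 460 genes picked as marking LSECs gained 0.0124%, and their median gain was 0 too. Far1 and C4b meet the rule for those genes as well. Grip1, a scaffold protein, had traces in LSECs alone (0.149, 0.0849 and 0.0574 CPM) and no read in co-culture. None of these 6 genes changed by the test in the cell that expresses it (Far1 in LSECs: adjusted p = 0.894, and 0.00772 with the replicate term; C4b: 0.122 and 0.000302). The trace of Far1 passed the Hepa1-6 test (adjusted p = 3.94e-05), and Arhgap10 and C4b were not tested in Hepa1-6 cells. No fold is given for these genes, and their fitted differences are only listed further below. The difference was lost for Far1 without Hepa1-6 co-culture replicate 1 or 2 or Hepa1-6 alone replicate 1, 2 or 3 or LSEC alone replicate 2 or 3 (adjusted p = 0.0532 to 0.0763), and for C4b without Hepa1-6 co-culture replicate 3 or Hepa1-6 alone replicate 1, 2 or 3 (adjusted p = 0.0518 to 0.0696).

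Other lists moved in Hepa1-6 cells without a difference between the cells by the test. Of 21 hypoxia genes tested in Hepa1-6 cells 12 rose, and of 24 in LSECs 1 rose (10 rose and 2 fell with the replicate term), and no response differed (4 higher in Hepa1-6 cells and 3 in LSECs with it). Glycolysis genes rose in 8 of 18 tested in Hepa1-6 cells and in none of 19 in LSECs (6 rose and 3 fell with the replicate term), and no response differed (3 and 5 with it). Chaperones and folding enzymes of the unfolded protein response rose in 12 of 22 in Hepa1-6 cells and in none in LSECs (13 rose and 2 fell with the replicate term), and no response differed (3 and 6 with it). Their medians over genes expressed in both were close in the 2 cells: 0.196 and 0.16 for hypoxia, 0.12 and 0.108 for glycolysis, and 0.104 and 0.188 for the unfolded protein response. Once replicate number was a term, 9 genes of the unfolded protein response rose in both cells. Hspa5, the main chaperone of the endoplasmic reticulum, was at 839.6 ± 18 CPM alone and 907 ± 4.2 CPM in co-culture in Hepa1-6 cells (adjusted p = 0.00249) and at 740.0 ± 71.3 CPM alone and 894 ± 65.7 CPM in co-culture in LSECs (adjusted p = 0.641, and 0.00319 with the replicate term).

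Ribosomal protein genes fell in 24 of 40 in Hepa1-6 cells and in none in LSECs, with medians of -0.091 and -0.216. With the replicate term, 16 fell and 1 rose in LSECs, and 8 fell in both cells. No response differed without the replicate term and 5 did with it; many of these genes have pseudogenes, which makes their counts uncertain. Nuclear genes of oxidative phosphorylation gave 1 rise and 3 falls in Hepa1-6 cells and none in LSECs (5 falls with the replicate term) among 30, with no difference under either model. Cell cycle genes changed little in Hepa1-6 cells (2 of 36 rose and 1 fell), and their median was -0.336 in LSECs, where none passed the test and 14 fell and 1 rose with the replicate term. Their responses differed in 3, Cdc6, Tpx2 and Mcm7, and in 17 with the replicate term, 15 of them higher in Hepa1-6 cells.

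Of 24 targets of NRF2 tested in Hepa1-6 cells 7 rose and 2 fell, and of 25 in LSECs 1 rose and 1 fell (4 and 16 with the replicate term). Srxn1, which repairs oxidised peroxiredoxins, was opposed, at 33.4 ± 2.68 CPM alone and 45 ± 0.488 CPM in co-culture in Hepa1-6 cells and 198 ± 9.09 CPM alone and 140.3 ± 6.67 CPM in co-culture in LSECs, a difference of 0.93 on the log2 scale (SE 0.119, adjusted p = 0.00199). Hmox1, heme oxygenase 1, fell 1.98-fold in LSECs (adjusted p = 0.0385) and its change in Hepa1-6 cells was 0.082 on the log2 scale (adjusted p = 0.614). Interferon response genes rose in 7 of 26 tested in Hepa1-6 cells and in 4 of 31 in LSECs, where 1 fell (18 and 1 with the replicate term). Those that rose included Irf7, Oasl1, Oas1a, Usp18, Isg20 and Ddx58 in Hepa1-6 cells, and Gbp2, Gbp3, Ifi44 and Zbp1 in LSECs. The response was higher in Hepa1-6 cells for 1 and in LSECs for 3 (4 and 9 with the replicate term). Gbp4 and Iigp1, which are outside this list, rose in both cells by the tests. Under the replicate term, 3 of this list rose in both cells. Among 24 cholesterol synthesis genes, 2 rose and 4 fell in Hepa1-6 cells, beside 8.5% and 7.03% of all genes. None of the 23 tested in LSECs passed (7 rose and 1 fell with the replicate term). The response was higher in LSECs for 1 and in Hepa1-6 cells for none (8 and 1 with the replicate term), and that gene, Sqle, squalene epoxidase, differed by -0.52 on the log2 scale (SE 0.115, adjusted p = 0.0435). Of 30 lysosomal genes tested in Hepa1-6 cells 6 rose and 1 fell, and of 31 in LSECs none passed. The 7 that rose and 8 that fell in LSECs with the replicate term stand beside 16.7% and 16.6% of all genes.

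**Figure D5:**
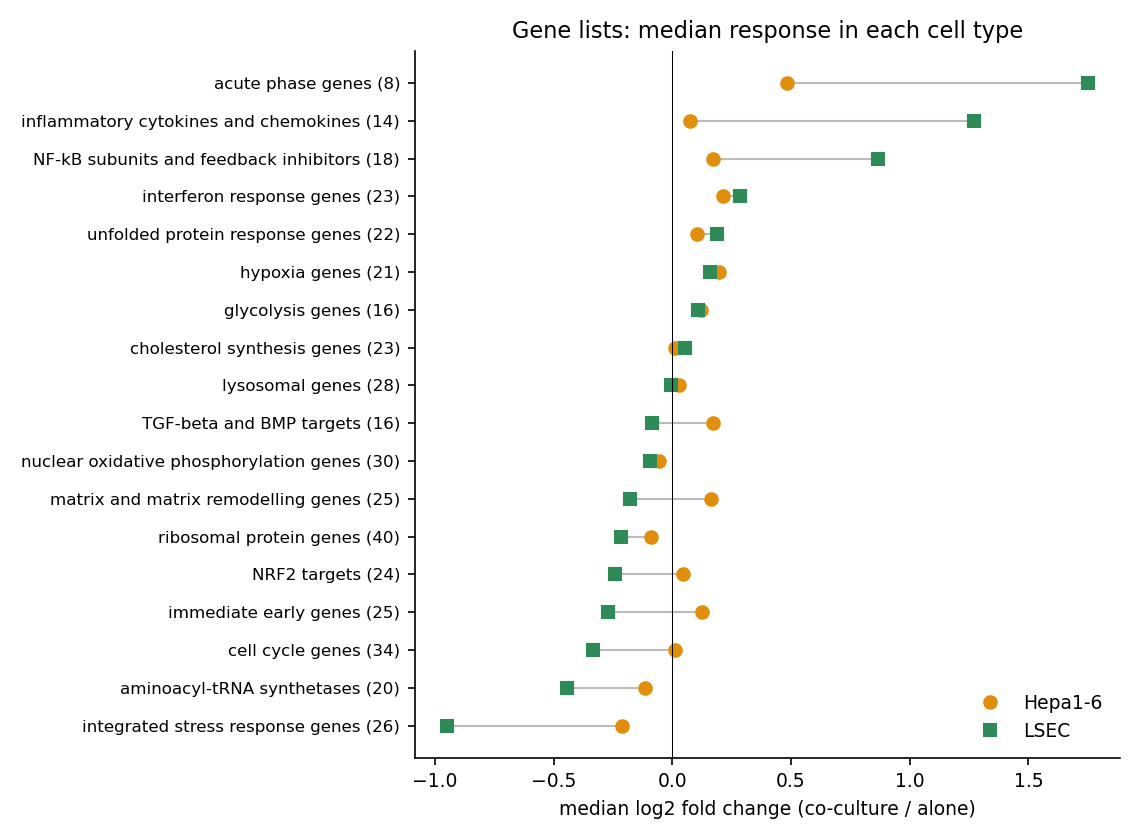
Median log2 fold change of co-culture over alone (horizontal axis) for each gene list in Hepa1-6 cells (circles) and LSECs (squares), over members expressed in both cell types, whose number is in parentheses; the vertical line is at 0. The acute phase, cytokine and NF-kB lists lie right of 0 and the integrated stress response list left of it in both cells, each farther out in LSECs.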

How the data were processed

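Poly(A) RNA from 12 libraries (4 groups of 3) was sequenced as stranded paired-end libraries from 1 µg of RNA, per the labels' protocols. HISAT2, StringTie and the mm10 build are named in the submitters' processing notes; versions are not given in the sources used here. The deposited expected counts per gene were whole numbers and were rounded as a precaution. The TPM values deposited by the authors were used in 1 alternative, as log2(TPM + 1). FPKM was not used. No column of the tables was left unassigned.

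Counts were tested with edgeR 4.0.16 in R 4.3.3: TMM scaling, filterByExpr, a robust quasi-likelihood fit and Benjamini-Hochberg adjustment, at 0.05. The difference of responses was fitted over all 12 libraries on all tested genes, and each cell's change over its own 6 libraries. The joint fit took the same spread per gene for both cell types, so Hepa1-6 libraries lower the spread assumed for LSECs. The SE of a difference can thus lie below that of its LSEC part, as for Mmp9 (0.21 against 0.24). The standard error is the log2 fold change divided by the square root of the F statistic. CPM values use 1 TMM scale over the 12 libraries. Alternatives used DESeq2 1.42.0, limma 3.58.1, other scalings and filters, a replicate term, and the omission of each library in turn. The edgeR models without a replicate term were checked on simulated counts. Those counts had the same spread in both cell types and no replicate effect, so the check does not cover the LSEC spread seen here. Precision follows from 32761492 to 48870698 counts per library, and spread between libraries is the error used.

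Replicate numbers come from the sample titles. Deviations from the group means correlated between same-numbered LSEC libraries (r = 0.941, 0.796 and 0.816) and not between Hepa1-6 libraries (0.0388, 0.00757 and 0.0568), so the replicate term is given for LSECs; replicates 2 and 3 correlated as well across numbers (0.813 and 0.852). Genes were named by a rule, at 5 CPM or more in the highest group: opposed and shared genes by the smaller of their 2 changes (6 a direction), shared genes also by their difference (4), one-sided genes by the change in their cell (4 a direction), one-cell genes by the difference (3 a direction), the 5 smallest p in each direction, and up to 4 a list by p. Dusp5, Sparc, Hp, Enpp2, Dnah6 and Icam1, and members listed without values, were chosen after their values were seen. The classes, lists and rules were chosen with earlier results of these data known. Coordinates span a gene's transcripts in the deposited tables (mm10, 1-based). Sequences are from RefSeq GRCm38.p6.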

Additional observations from a re-analysis of the deposited data

Results flagged for a closer look

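The change on co-culture differed between Hepa1-6 cells and LSECs by the test of the difference itself in each gene below, given as Hepa1-6 minus LSEC on the log2 scale. Among opposed genes the value was 5.62 for Ramp3, 3.49 for Ass1, 1.38 for Per1, 1.54 for Abtb2, 1.5 for Pmp22, 1.14 for Itga3, 1.91 for Dusp14. In the reverse direction it was -2.3 for Pde1b, -5.93 for Serpinb2, -1.08 for Vcam1, -1.49 for Adamts7, -1.05 for Sh3tc1, -0.95 for Vegfc.

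Among genes that changed the same way in both cells it was 0.80 for Cyp1a1, -1.62 for C3, -4.6 for Slc7a2, -2.52 for Cp, -1.69 for Socs3, -5.07 for Ptges, 1.66 for Gpnmb, -6.18 for Mmp9, -3.88 for Mmp13, -6.03 for Cxcl3. Where the Hepa1-6 test alone passed it was 1.73 for Gpr137b, 1.46 for Crem, 1.04 for Arg2, 0.74 for Dusp1, -1.02 for Pdgfb, -0.80 for Gas6, -0.53 for Zfp362. Where the LSEC test alone passed it was -6.98 for Urah, -4.38 for Cxcl5, -3.65 for Ccl9, -3.75 for Cxcl1, 4.06 for Ccdc148, 2.39 for Arhgap19, 2.01 for Acsbg1, 1.61 for Sphk1.

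Among genes expressed in LSECs only it was -5.6 for Csf3, -4.04 for Itgam, -3.89 for Slamf9, 7.13 for Far1, 6.28 for Arhgap10, 4.69 for C4b. Among genes expressed in Hepa1-6 cells only it was 6.83 for Ocstamp, 5.39 for Il11, 5.05 for Grip1, -6.3 for Inava, -6.14 for Ccl20, -6.12 for Epb41l4b. Values for Far1, Arhgap10, C4b, Ocstamp, Grip1, Inava and Epb41l4b rest on a group with no read, so they depend on the prior count and bound nothing.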

How the results depend on the processing

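Under DESeq2 the counts were 1215 genes with a difference, 1301 changed in LSECs, 240 opposed, 173 shared, 73 Hepa1-6-sided and 322 LSEC-sided, against 408, 471, 109, 64, 16 and 79. With a replicate block for LSECs they were 3368, 5082, 275, 721, 209 and 1561, and with a replicate block in both cells 3008, 5082, 271, 787, 160 and 1345. Using only replicates 2 and 3 of the LSECs they were 3305, 5559, 783, 761, 219 and 1587. Ranges lie apart more easily with fewer libraries, so the 783 opposed genes met an easier rule. Ranges apart in opposite directions, without the test, occurred in 958 genes there, against 281 with all libraries. All 408 genes remained different under these 4 alternatives, 288 under voom with a variance factor per group and 234 under limma on log2(TPM + 1). Leaving out 1 Hepa1-6 library kept 212 to 232 of the 408, and leaving out 1 LSEC library kept 295 to 401. On log2(TPM + 1) with limma, 828 genes differed and 1287 changed in Hepa1-6 cells, against 2298. A limit of at least 2-fold left 259 differing genes, and both own tests in place of ranges gave 25 opposed genes. Both rules were added after seeing the data. Leaving out 1 library gave 216 to 726 differing, 1583 to 2298 Hepa1-6, 146 to 490 LSEC, 64 to 203 opposed, 19 to 69 shared, 6 to 40 Hepa1-6-sided and 22 to 94 LSEC-sided genes. Scaling within each cell type, RLE scaling, no filter, a CPM filter and voom kept each count within 1.5 times of its value unless given here.

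Over the named genes and these alternatives, the difference kept its direction and call in 1087 comparisons, lost the call in 89, gained it in 21 and reversed in 1, which was C4b at -0.46 with limma on log2(TPM + 1); the cause was not tested. Depth limits the genes near 0 in one cell.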
